A study of Mus musculus with 55 samples.

Results

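The AP-1 genes described here are 8 genes of the Fos and Jun family and its close partners: *Fos*, *Fosb* and *Fosl2* of the Fos branch, *Jun*, *Junb* and *Jund* of the Jun branch, and the related *Atf3* and *Batf*. They were picked by symbol from the 55421 genes of the first count table, and the same 8 symbols were read from the 35975 genes of the second table as support. They were selected because of their measured counts in these libraries, so their differences are given below as a description, without a p-value, and no count of them is evidence on its own.

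AP-1 is a dimer of basic leucine zipper (bZIP) proteins. Jun proteins can pair with each other or with a Fos protein, whereas Fos proteins need a Jun partner, and the pairs bind a short palindromic DNA element. *Fos*, *Fosb*, *Jun*, *Junb* and *Atf3* are immediate early genes, whose transcription starts within minutes of a stimulus without new protein synthesis and whose messages are short-lived. JUNB is best known in blood cells for restraining proliferation, ATF3 is a stress-induced factor that often represses its targets, and BATF lacks a transactivation domain and works with JUN proteins and IRF factors in lymphoid and myeloid cells.

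The study asked which signalling pathways change in hematopoietic stem and progenitor cells (HSPCs) that have lost *Tet2*, a gene for an enzyme that oxidizes methylated cytosine. Bulk RNA-seq was made from sorted mouse bone marrow cells, with 200 cells per library in the sample labels. The first table holds 46 libraries of long-term (LT-HSC) and short-term (ST-HSC) hematopoietic stem cells, of the common lymphoid progenitor (CLP), and of the common myeloid progenitor (CMP) and its megakaryocyte and erythroid (MEP) or granulocyte and macrophage (GMP) offspring, with 4 libraries per population and genotype except 3 for WT LT-HSC and 3 for WT ST-HSC. The second table holds 9 LT-HSC libraries, 3 each labelled WT, Sting knockout and Tet2/Sting double knockout. Per the study's methods, the *Tet2* knockout is a floxed allele cut by Mx1-Cre after poly(I:C) injection of young mice, which were then kept for weeks before analysis, the *Sting* knockout is germline, and all mice were on a C57BL/6 background. Mx1-Cre is switched on by interferon and is active in many tissues besides blood. Whether WT mice carried the Cre or received poly(I:C), and the age at sorting of each mouse, are not given in the labels. The labels number the replicates and the methods give them as mice.

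Total counts ran from 50458473 to 102148079 per library in the first table and from 26776103 to 78681188 in the second. The first table detected 13754 to 20964 genes per library and the second 9381 to 11527, and all 8 AP-1 genes passed the low-count filter in each of the 14 comparisons. Levels are CPM (a gene's reads relative to a fixed number of reads in its library), scaled by the TMM method within each table, given as mean ± SD over libraries, and n is 4 unless stated. A gene was called different at a Benjamini-Hochberg adjusted p below 0.05 over all genes tested and at least a 2-fold change in edgeR's quasi-likelihood fit of the groups compared.

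Read counts of the targeted genes did not separate the labelled groups. *Tet2* counts over the whole gene in the libraries labelled Tet2 knockout overlapped those of WT in each of the 6 populations, for example 13.2 ± 1.69 CPM (n = 3) in WT LT-HSC against 24.0 ± 12.7 CPM, and a whole-gene count does not isolate a deleted stretch. *Tmem173*, the gene for STING, was at 45.3, 34.1 and 0 CPM in the 3 WT libraries of the second table, at 122, 0 and 63.5 CPM in those labelled Sting knockout, and at 0, 0.191 and 26.2 CPM in those labelled Tet2/Sting double knockout. Groups are therefore named by label throughout. The study itself reports PCR genotyping of the *Tet2* deletion. It also reports loss of STING protein by Western blot in bone marrow cells of *Sting* knockout and double knockout mice. Whether those were the mice sequenced is not stated. In the second table the Y-linked gene *Eif2s3y* was at 157 to 314 CPM in the 6 labelled knockout libraries and at 0 to 0.234 CPM in WT, so that sex and genotype cannot be told apart there in comparisons with WT. In the first table *Eif2s3y* was at 0 in all 46 libraries.

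In part, the CLP libraries also departed from their label. *Ighm*, the mu heavy chain gene of B cells, took 10.3% to 15.9% of the counts of the WT CLP libraries, while *Rag1*, a gene of the recombinase that lymphoid progenitors use, was at 0 in all 4. *Il7r* and *Dntt* went with the label, whereas *Flt3* was not highest in CLP. *Il7r*, the gene for the gate marker CD127, was at 513 ± 102 CPM in WT CLP. Its mean was at most 0.986 CPM in the other WT populations. Mean *Dntt* was 357 CPM in WT CLP and at most 70.4 CPM in the other WT populations. *Flt3* was at 50.9 ± 47.3 CPM in WT CLP, below WT ST-HSC (96.7 ± 6.12 CPM, n = 3) and WT CMP (73.1 ± 22.1 CPM) by its mean. The WT CLP library of replicate 4 had *Flt3* at 0 and *Dntt* at 0.830 CPM, against 21.4 to 93.8 CPM and 371 to 644 CPM in the other 3. The CLP library of replicate 2 labelled Tet2 knockout had *Ighm* at 0.0616% of counts, against 4.11% to 9.84% in the other 3. CLP is used below as the name of the gate, and the CLP fold changes of the 8 genes are given with and without these 2 libraries. Other CLP values include them.

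The promoters of *Fos*, *Jun* and *Junb* are shown because these were the 3 AP-1 genes whose difference between genotypes varied most clearly with the population. Each sequence is the 250 bases before the RefSeq gene start on GRCm38.p6 (mm10), written 5′ to 3′ on the gene's strand. They lie at chr12:85473640-85473889 on the plus strand for *Fos*, at chr4:95052223-95052472 on the minus strand for *Jun* and at chr8:84978749-84978998 on the minus strand for *Junb*. Capitals mark TGACG, the core of the cyclic AMP response element, in *Fos* and *Junb*, TATAAA in *Fos*, and TGACATCA, a Jun-type response element, in *Jun*.
Fos: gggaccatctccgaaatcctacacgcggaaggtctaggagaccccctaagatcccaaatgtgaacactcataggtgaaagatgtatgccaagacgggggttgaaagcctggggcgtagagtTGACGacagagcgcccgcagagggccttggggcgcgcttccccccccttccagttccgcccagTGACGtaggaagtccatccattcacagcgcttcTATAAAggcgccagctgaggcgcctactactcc
Jun: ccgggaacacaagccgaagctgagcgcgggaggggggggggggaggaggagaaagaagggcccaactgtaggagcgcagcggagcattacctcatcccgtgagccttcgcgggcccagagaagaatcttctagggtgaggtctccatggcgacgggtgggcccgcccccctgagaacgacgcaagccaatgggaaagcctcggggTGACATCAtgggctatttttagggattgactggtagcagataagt
Junb: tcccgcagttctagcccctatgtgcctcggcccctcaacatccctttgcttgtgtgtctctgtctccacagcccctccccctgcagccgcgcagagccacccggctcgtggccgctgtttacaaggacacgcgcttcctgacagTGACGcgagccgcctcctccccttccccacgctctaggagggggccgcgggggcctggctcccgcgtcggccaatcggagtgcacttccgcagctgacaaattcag

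The *Fos* window held TGACG at 129 and at 66 bases before the start and TATAAA at 33 bases before it. The *Jun* window held TGACATCA at 45 and CCAAT at 65 bases before the start, and the *Junb* window held TGACG at 106 and CCAAT at 36 bases before it. On either strand, TGACG was in 5 of the 8 AP-1 windows and in 17.8% of all 32851 RefSeq promoter windows of this length, a motif that was chosen after the sequences had been viewed and that is contained in the longer element TGACGTCA. TATAAA was in 1 of 8 windows against 12.4% of all, TGACATCA in 1 of 8 against 2.93%, and CCAAT in 2 of 8 against 33.8%. The full TGACGTCA (1.55% of all windows), the AP-1 site itself as TGACTCA or TGAGTCA (4.46%) and the CArG box that serum response factor binds (1.47%) were in 0 of the 8 windows. These are matches of letters only, and bases further from the start were not searched. For some genes the RefSeq start differs from the GENCODE position given below. The *Fosl2* window (chr5:32136222-32136471) and the *Atf3* window (chr1:191183334-191183583) lie inside the GENCODE gene. The *Jund* window ends at chr8:70697738, before the GENCODE start at 70698949.

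In WT bone marrow, *Fos* was the most abundant of the 8 genes in all 6 populations on a per-kilobase scale. It took 45.4% ± 5.64 (MEP) to 64.4% ± 5.90 (CLP) of the summed CPM per kilobase of the 8 genes. The rest of the pool differed between populations. In WT LT-HSC (n = 3) *Batf* took 10.9% ± 2.2, *Fosl2* 8.0% ± 2.73 and *Junb* 3.35% ± 1.89. In WT GMP the second place belonged to *Jun* with 16.9% ± 2.47, and in WT MEP and CLP to *Junb* with 22.6% ± 7.78 and 26.7% ± 4.34. *Jund*, the member usually described as constitutive, never passed a mean of 2.26% in WT.

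**Figure D1:**
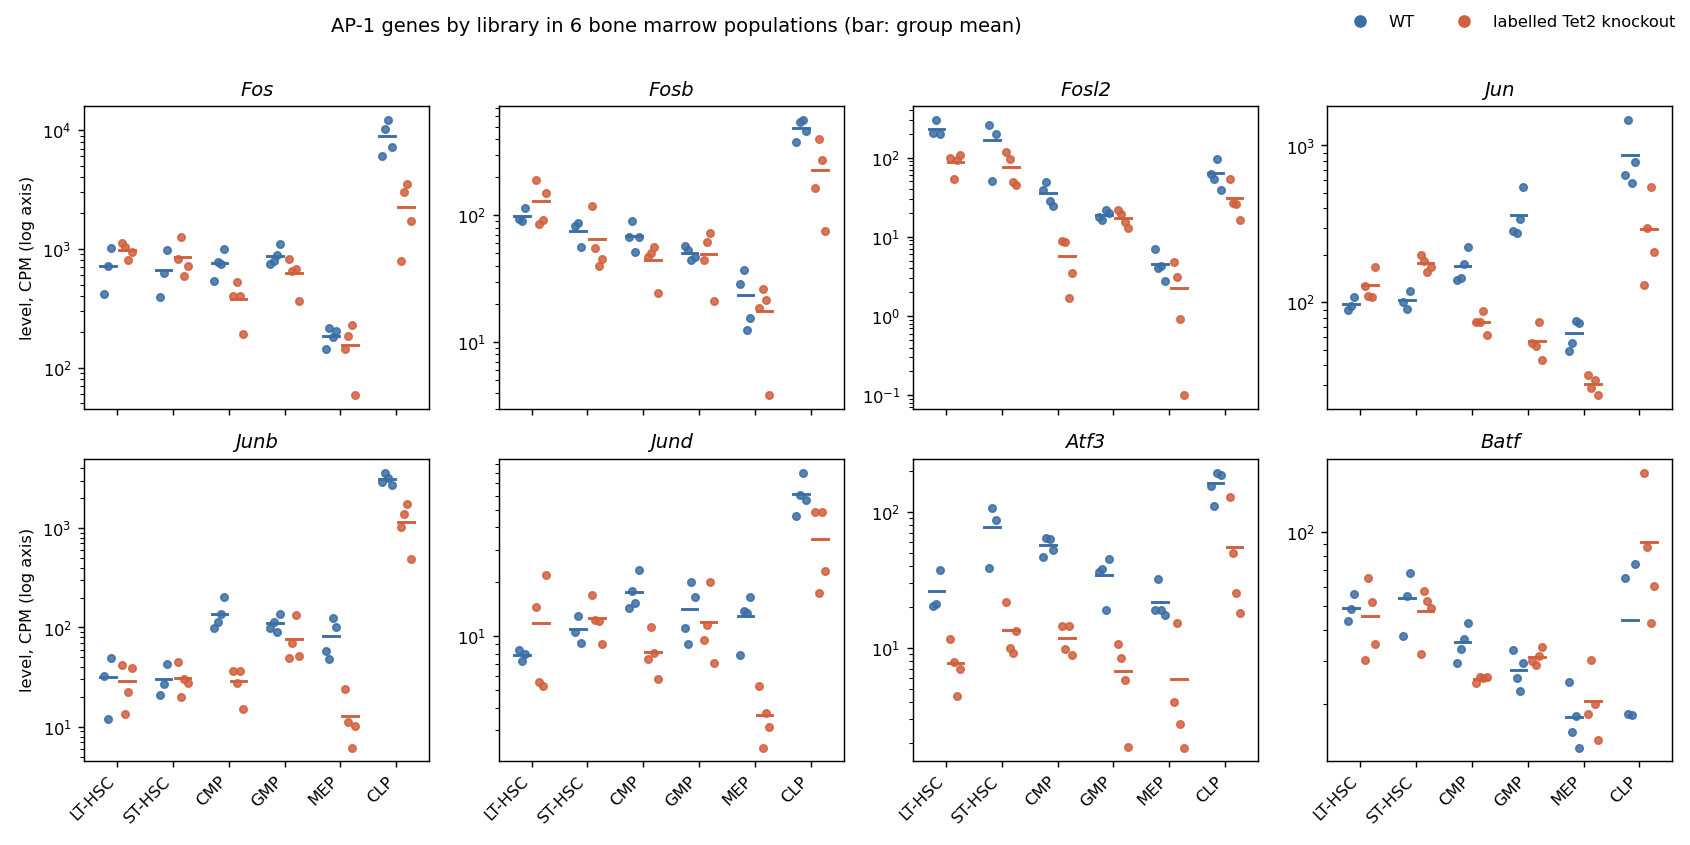
Level of each AP-1 gene in every library of the first table, as CPM on a log axis, by population, with 1 point per library and a bar at the group mean. WT CLP libraries stand above the other WT libraries for *Fos* (6020 to 12140 CPM) and *Junb* (2702 to 3600 CPM), and *Atf3* points of libraries labelled Tet2 knockout lie below WT in LT-HSC, ST-HSC, CMP, GMP and MEP.

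*Fos* encodes the founding member of its branch and lies at chr12:85473890-85477273 on the plus strand (GENCODE vM21, mm10). Its WT level was 8861 ± 2790 CPM in CLP, with libraries at 6020, 10132, 12140 and 7152 CPM. In GMP it was 743, 792, 887 and 1089 CPM, and in CMP 536, 779, 749 and 1000 CPM. These 2 groups overlapped each other and LT-HSC (414, 724 and 1011 CPM) and ST-HSC (392, 626 and 983 CPM), while MEP was lower than all with 142, 214, 183 and 203 CPM. CLP stood 10.1-fold above GMP, the next in order, with no overlap, and GMP, CMP, LT-HSC and ST-HSC were not separated by their spread. The TMM scaling factors were 0.546 to 0.709 in WT CLP and 1.06 to 1.15 in WT GMP, and a lower factor gives a higher CPM. The part of this scaling in the CLP levels was not tested.

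*Fosb*, a close relative of *Fos* at chr7:19302696-19310051 on the minus strand, was also highest in CLP and lowest in MEP, with another order between them. WT CLP had 484 ± 84.5 CPM (375 to 562), LT-HSC 99.6 ± 13.4 (n = 3), ST-HSC 75.1 ± 16.2 (n = 3), CMP 69.0 ± 16.1, GMP 50.3 ± 5.79 and MEP 23.4 ± 11.6 CPM. In that order ST-HSC overlapped CMP and CMP overlapped GMP, and the other neighbours did not overlap.

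*Fosl2* encodes FRA2, a Fos protein without the strong activation domain of FOS, and lies at chr5:32135801-32157842 on the plus strand. Its order among the populations was different, with the highest WT mean in stem cells. LT-HSC had 202, 297 and 196 CPM, ST-HSC 257, 50.9 and 198 CPM, CLP 63.1 ± 24.7 CPM, CMP 35.2 ± 11.1 CPM, GMP 18.9 ± 2.33 CPM and MEP 4.48 ± 1.77 CPM. WT LT-HSC thus had a mean 51.7-fold above WT MEP. The ST-HSC library of replicate 3 lay as low as the CLP libraries, and LT-HSC overlapped ST-HSC, ST-HSC overlapped CLP and CLP overlapped CMP, while CMP, GMP and MEP did not overlap.

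*Jun*, at chr4:95049034-95052222 on the minus strand, encodes the Jun protein with the strongest activity in the dimer. Its WT libraries were at 652, 1451, 579 and 781 CPM in CLP and at 287, 279, 341 and 546 CPM in GMP. In CMP they were at 139, 144, 175 and 224 CPM, in ST-HSC at 101, 90.9 and 117 CPM, in LT-HSC at 89.8, 94.4 and 108 CPM, and in MEP at 48.7, 55.4, 76.1 and 73.7 CPM. The stem cell groups overlapped each other, and every other pair of neighbours in this order was separated.

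*Junb*, at chr8:84974484-84978718 on the minus strand, showed the widest range. Its WT mean was 3105 ± 385 CPM in CLP, 138 ± 46.8 in CMP, 110 ± 21.0 in GMP, 82.7 ± 36.0 in MEP, 31.5 ± 19.0 in LT-HSC (n = 3) and 30.4 ± 11.6 CPM in ST-HSC (n = 3). CLP was 22.5-fold above CMP and 102-fold above ST-HSC. CMP, GMP and MEP overlapped as neighbours, and so did MEP with LT-HSC and LT-HSC with ST-HSC. *Junb* shares its locus with *Prdx2* on the opposite strand, whose WT level was 192 ± 55.0 CPM in CLP, and since the use of strand in counting is not stated, reads of the overlap cannot be told apart.

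*Jund*, at chr8:70698949-70700616 on the plus strand, was the weakest of the Jun genes. WT CLP had 61.0 ± 14.2 CPM, and the other 5 WT means lay between 7.88 (LT-HSC) and 17.6 CPM (CMP), with overlap between CMP, GMP, MEP and ST-HSC as neighbours. *Atf3*, at chr1:191170296-191218039 on the minus strand, had 161 ± 38.3 CPM in WT CLP and 38.4, 106 and 86.3 CPM in WT ST-HSC. In WT LT-HSC it had 20.3, 21.1 and 37.1 CPM, below all 3 ST-HSC libraries. *Batf*, at chr12:85686669-85709087 on the plus strand, was the flattest gene, with WT means from 17.8 (MEP) to 53.9 CPM (ST-HSC) and overlap at each step of the order. The antisense genes that overlap *Jun* and *Jund* stayed at or below 2.2 and 0.300 CPM in the libraries of the first table.

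Read along the WT hierarchy, 0 of 8 AP-1 genes were called between ST-HSC and LT-HSC, where 0.209% of 15824 genes were called. At an unadjusted p under 0.05 it was 1, *Atf3* with a log2 fold change of 1.57 ± 0.42 (SE), which DESeq2 also called, and 1395 of the 15824 genes had such a p. From ST-HSC to CMP *Junb* rose by 2.18 ± 0.34 and *Fosl2* fell by 2.27 ± 0.51 on the log2 scale (2 of 8, against 12.2% of 16428 genes called in either direction). The *Fosl2* call was lost on leaving out any of 5 libraries.

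From CMP to GMP, *Jun* alone rose, by 1.13 ± 0.23 (1 of 8, against 13.5% of 16284 genes), and this call was lost without WT GMP replicate 5, which had the highest *Jun* level of its group. From CMP to MEP 6 of 8 fell, against 14.7% of 15547 genes: *Fosl2* by 2.98 ± 0.35, *Fos* by 2.06 ± 0.20, *Fosb* by 1.57 ± 0.36, *Jun* by 1.44 ± 0.19, *Atf3* by 1.38 ± 0.22 and *Batf* by 1.01 ± 0.22. *Junb* (-0.76 ± 0.33) and *Jund* (-0.47 ± 0.26) were not called there. In CLP against ST-HSC 5 of 8 rose, against 14.9% of 15099 genes: *Junb* by 6.73 ± 0.39, *Fos* by 3.80 ± 0.45, *Jun* by 3.13 ± 0.41, *Fosb* by 2.75 ± 0.29 and *Jund* by 2.54 ± 0.37. This *Jund* call was lost with the replicate number as a block, and DESeq2 also called *Atf3* there. In MEP the *Batf* call was lost without CMP replicate 4 or 5 or MEP replicate 3 or 5, and a single fit of all libraries called 4 of 8, without *Atf3* and *Batf*. These comparisons share their WT libraries with each other and with the genotype comparisons below.

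The libraries labelled Tet2 knockout were compared with WT in each population to ask where the AP-1 genes follow the genotype label. In CMP, GMP and MEP several genes were lower by 2-fold or more, *Atf3* and *Jun* most regularly, whereas in LT-HSC and ST-HSC *Fos* and *Jun* had log2 fold changes above 0 and *Atf3* and *Fosl2* the most negative ones. In these bulk samples fewer cells with a transcript and less of it per cell cannot be told apart.

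**Figure D2:**
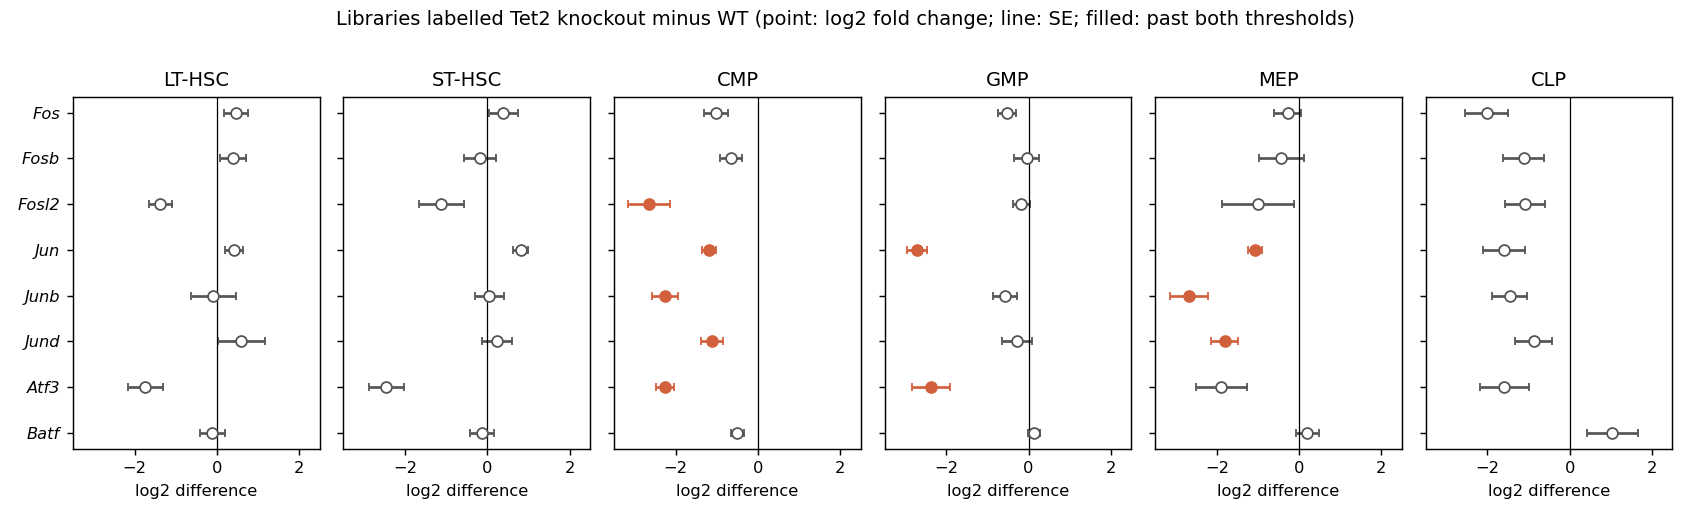
Log2 fold change of each AP-1 gene, libraries labelled Tet2 knockout minus WT, in the 6 populations, with the SE as a line and filled points for genes called by edgeR. Filled points appear only in CMP (5), GMP (2) and MEP (3), and *Jun* lies right of 0 in LT-HSC and ST-HSC and left of 0 in the other 4 populations.

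In LT-HSC 0 of 8 AP-1 genes were called lower, and 0% of 16351 genes were. At an unadjusted p under 0.05 there were 2 of 8, against 5.16% of all genes, and DESeq2 called the same 2, *Fosl2* and *Atf3*. *Fosl2* was at 202, 297 and 196 CPM in WT and at 98.2, 53.8, 94.0 and 108 CPM in the libraries labelled Tet2 knockout, a log2 fold change of -1.37 ± 0.28. *Atf3* was at 20.3, 21.1 and 37.1 CPM against 11.7, 7.80, 4.45 and 6.93 CPM, a log2 fold change of -1.74 ± 0.42. These 2 genes lay wholly below WT, as 3.63% of all genes did. *Fos* was at 802 to 1121 CPM and overlapped WT (0.47 ± 0.29), and *Jun* at 108 to 169 CPM lay just above WT at 89.8 to 108 CPM (0.42 ± 0.23). Mitochondrial genes took 8.02% to 9.50% of counts in WT LT-HSC and 8.82% to 14.5% in those labelled Tet2 knockout, whose part was not tested.

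ST-HSC resembled this in part. None of the 8 was called (0 of 8, against 0% of 16212 genes called lower), 2 of 8 had an unadjusted p under 0.05 against 6.13% of all genes, and DESeq2 called 1, *Atf3*. *Atf3* was at 38.4, 106 and 86.3 CPM in WT and at 21.7, 10.0, 9.10 and 13.4 CPM in the libraries labelled Tet2 knockout (-2.46 ± 0.43), the 1 AP-1 gene wholly below WT where 4.66% of all genes were. *Jun* went the other way, at 199, 183, 157 and 169 CPM against 101, 90.9 and 117 CPM in WT (0.81 ± 0.18), with no overlap. *Junb*, at 19.9 to 44.8 CPM, had a difference of 0.05 ± 0.36. Mitochondrial genes took 8.73% to 9.02% of counts in WT ST-HSC and 10.0% to 13.1% in those labelled Tet2 knockout, whose part was not tested.

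CMP had the broadest change. Of 8 AP-1 genes, 5 fell (*Fosl2*, *Jun*, *Junb*, *Jund* and *Atf3*), where 3.92% of 16047 genes were called lower, and 7 of 8, *Fosb* excepted, lay wholly below WT, where 9.29% of all genes did. *Junb* was at 98.0, 114, 135 and 204 CPM in WT and at 36.5, 27.5, 36.5 and 15.2 CPM in the libraries labelled Tet2 knockout, and fell by 2.27 ± 0.32 on the log2 scale. *Atf3* was at 46.4, 63.7, 63.3 and 52.3 CPM against 14.6, 9.78, 14.4 and 8.85 CPM, and fell by 2.26 ± 0.22. For both genes every library labelled Tet2 knockout lay below every WT library.

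*Fosl2* in CMP was at 39.1, 49.0, 28.3 and 24.4 CPM in WT against 8.89, 8.58, 1.67 and 3.52 CPM, and fell by 2.64 ± 0.51. *Jun* was at 139, 144, 175 and 224 CPM against 75.4, 74.6, 88.3 and 62.1 CPM, and fell by 1.19 ± 0.17. *Jund* was at 14.4 to 23.1 CPM against 5.77 to 11.3 CPM, and fell by 1.12 ± 0.26, close to the threshold. *Fos*, at 536 to 1000 CPM in WT and 192 to 528 CPM in the libraries labelled Tet2 knockout, had a difference of -1.02 ± 0.29 that DESeq2 called and edgeR did not. Replicate 5 labelled Tet2 knockout had the lowest *Fos*, *Fosb*, *Jun*, *Junb*, *Jund* and *Atf3* of its group, and without it the calls of *Fosl2* and *Jund* were lost, leaving *Jun*, *Junb* and *Atf3*. The *Jund* call was also lost without WT replicate 3, 4 or 5 and without replicate 2 or 4 labelled Tet2 knockout. It was lost too without the low-count filter, in the single fit of all libraries and with the replicate number as a block.

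Beside these CMP results, the summed level of 7 MEP marker genes was 702 to 1701 CPM in WT and 2938 to 5790 CPM in the libraries labelled Tet2 knockout, that of 7 CLP markers was 184 to 301 CPM against 119 to 145 CPM, and mitochondrial genes took 5.94% to 6.57% against 7.85% to 8.37% of counts. *Prdx2*, which overlaps *Junb*, was at 512 ± 81.6 CPM in WT and 748 ± 87.0 CPM in the libraries labelled Tet2 knockout. The part of these differences in the AP-1 results was not tested.

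In GMP the change rested on 2 of 8 genes, *Jun* and *Atf3*, where 4.06% of 16563 genes were called lower. *Jun* was at 287, 279, 341 and 546 CPM in WT and at 55.4, 52.9, 75.3 and 42.9 CPM in the libraries labelled Tet2 knockout, and fell by 2.72 ± 0.25, or 6.57-fold. *Atf3* was at 36.1, 38.0, 18.9 and 44.8 CPM against 10.7, 8.44, 5.80 and 1.86 CPM, and fell by 2.37 ± 0.46. The same 2 genes lay wholly below WT, as 8.01% of all genes did. The Fos branch was not called, with *Fos* at -0.52 ± 0.22, *Fosb* at -0.05 ± 0.31 and *Fosl2* at -0.18 ± 0.21, and *Junb* had -0.57 ± 0.29. Mitochondrial genes took 3.64% to 4.60% of counts in WT GMP and 4.74% to 5.09% in those labelled Tet2 knockout. The summed level of 7 MEP markers was 102 to 125 CPM in WT against 174 to 194 CPM, and that of 7 CLP markers 117 to 188 CPM against 93.9 to 109 CPM. Their part was not tested.

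In MEP 3 of 8 fell, *Jun*, *Junb* and *Jund*, where 4.21% of 14934 genes were called lower. *Junb* was at 57.8, 47.7, 124 and 102 CPM in WT and at 24.0, 11.2, 6.21 and 10.3 CPM in the libraries labelled Tet2 knockout, and fell by 2.68 ± 0.45. *Jund* was at 7.81, 13.8, 13.3 and 16.4 CPM against 5.28, 2.41, 3.75 and 3.15 CPM, and fell by 1.81 ± 0.32, a call that was lost with the replicate number as a block. *Jun* was at 48.7, 55.4, 76.1 and 73.7 CPM against 34.5, 28.3, 31.9 and 25.7 CPM, and fell by 1.08 ± 0.17, a call that was lost without WT replicate 4.

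*Atf3* in MEP (-1.89 ± 0.62) also lay wholly below WT, making 4 of 8 where 8.46% of all genes did. It was called by DESeq2 and not by edgeR. *Fos* was at 142 to 214 CPM in WT and 58.9 to 230 CPM in the libraries labelled Tet2 knockout and overlapped (-0.28 ± 0.34). *Prdx2* was at 1406 ± 139 CPM in WT MEP against 1664 ± 94.8 CPM, and mitochondrial genes took 6.85% to 9.18% against 8.96% to 9.74% of counts.

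In CLP 0 of 8 AP-1 genes were called lower, and 0% of 13060 genes were. At an unadjusted p under 0.05 there were 5 of 8 against 3.65% of all genes, DESeq2 called 1 (*Fos*), and a single fit of all 46 libraries called 3 (*Fos*, *Jun* and *Junb*). The 0% is the share in edgeR's fit of the 2 groups, and no share of all genes is given for these other fits. *Fos*, *Jun* and *Junb* lay wholly below WT, where 1.81% of all genes did. *Fos* was at 6020, 10132, 12140 and 7152 CPM in WT and at 786, 3017, 3504 and 1704 CPM in the libraries labelled Tet2 knockout (-2.02 ± 0.53). *Junb* was at 2929, 3600, 3190 and 2702 CPM against 1019, 1369, 1744 and 493 CPM (-1.46 ± 0.42). *Jun* was at 652, 1451, 579 and 781 CPM against 130, 300, 541 and 209 CPM (-1.60 ± 0.51).

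Without the 2 CLP libraries of unlike markers (3 against 3), the values were -1.53 ± 0.45 for *Fos*, -1.38 ± 0.52 for *Junb*, -1.50 ± 0.52 for *Jun* and -2.29 ± 0.48 for *Atf3*, and 0 of 8 were called. *Fosl2* was at -1.18 ± 0.44, *Jund* at -0.92 ± 0.50 and *Fosb* at -0.90 ± 0.60, against -1.09, -0.88 and -1.12 with all libraries. *Batf*, at 1.04 ± 0.63 with all libraries, moved to 0.27 ± 0.58, and to 0.52 without replicate 2 labelled Tet2 knockout alone (175 CPM against 42.7 to 87.6 in the other 3). Beside these values, the summed level of 6 B cell markers was 570 to 1223 CPM in WT CLP and 209 to 675 CPM in the libraries labelled Tet2 knockout, and that of 7 GMP markers 4.77 to 3177 CPM against 2.65 to 12453 CPM. The summed level of 7 CLP markers, *Ighm* among them, was 146412 to 268717 CPM against 2240 to 132662 CPM. In WT most of that sum was *Ighm*, at 145573 to 267699 CPM against 576 to 131304 CPM. *Il7r* was at 513 ± 102 CPM in WT against 484 ± 417 CPM, *Dntt* at 357 ± 266 against 806 ± 666 CPM, and *Flt3* at 50.9 ± 47.3 against 104 ± 67.5 CPM. Mitochondrial genes took 2.41% to 4.58% against 3.11% to 12.5% of counts. Their part was not tested.

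Gene by gene, *Atf3* and *Fosl2* had negative log2 fold changes in 6 of 6 populations, *Fosb* and *Junb* in 5, *Fos*, *Jun* and *Jund* in 4 and *Batf* in 3. Of these signs, *Fosb* in GMP, *Junb* and *Batf* in LT-HSC, *Junb* and *Batf* in ST-HSC and *Batf* in MEP lay near 0 and turned on leaving out 1 library. *Atf3* ran from -2.46 (ST-HSC) to -1.59 (CLP), and its value went from -1.89 to -2.92 in MEP without replicate 3 labelled Tet2 knockout and from -1.59 to -2.41 in CLP without replicate 2. *Jun* ran from 0.81 in ST-HSC to -2.72 in GMP, *Junb* from 0.05 in ST-HSC to -2.68 in MEP, and *Fos* from 0.47 in LT-HSC to -2.02 in CLP. In one model of all 46 libraries the genotype difference varied with the population for these 3 of the 8 genes (*Fos*, *Jun* and *Junb*), against 2.65% of 22360 genes, at an adjusted p below 0.05 in edgeR. DESeq2's likelihood ratio test gave 4. Libraries of 1 number and genotype may come from 1 mouse across the populations, which this model and the comparisons of WT populations did not take into account. The selection of the genes used the same libraries, so this count too is a description.

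The make-up of the AP-1 pool also differed on the per-kilobase scale. Among the libraries labelled Tet2 knockout, *Fos* took 58.0% ± 10.3 of the summed level in MEP and 70.1% ± 5.45 in ST-HSC, against 45.4% ± 5.64 and 59.9% ± 7.5 (n = 3) in WT. In CLP it took 52.1% ± 15.8 against 64.4% ± 5.90 in WT, a mean lowered by replicate 2 labelled Tet2 knockout, one of the libraries of unlike markers, where *Fos* made up 376 of 1296 CPM per kilobase. It made up 1441 of 2513, 1674 of 2941 and 814 of 1254 CPM per kilobase in the other 3. *Jun* took 4.34% ± 0.750 in GMP against 16.9% ± 2.47, and *Junb* 6.52% ± 4.06 in MEP against 22.6% ± 7.78. *Atf3* took 1.24% ± 0.518 in ST-HSC against 7.52% ± 2.98.

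**Figure D3:**
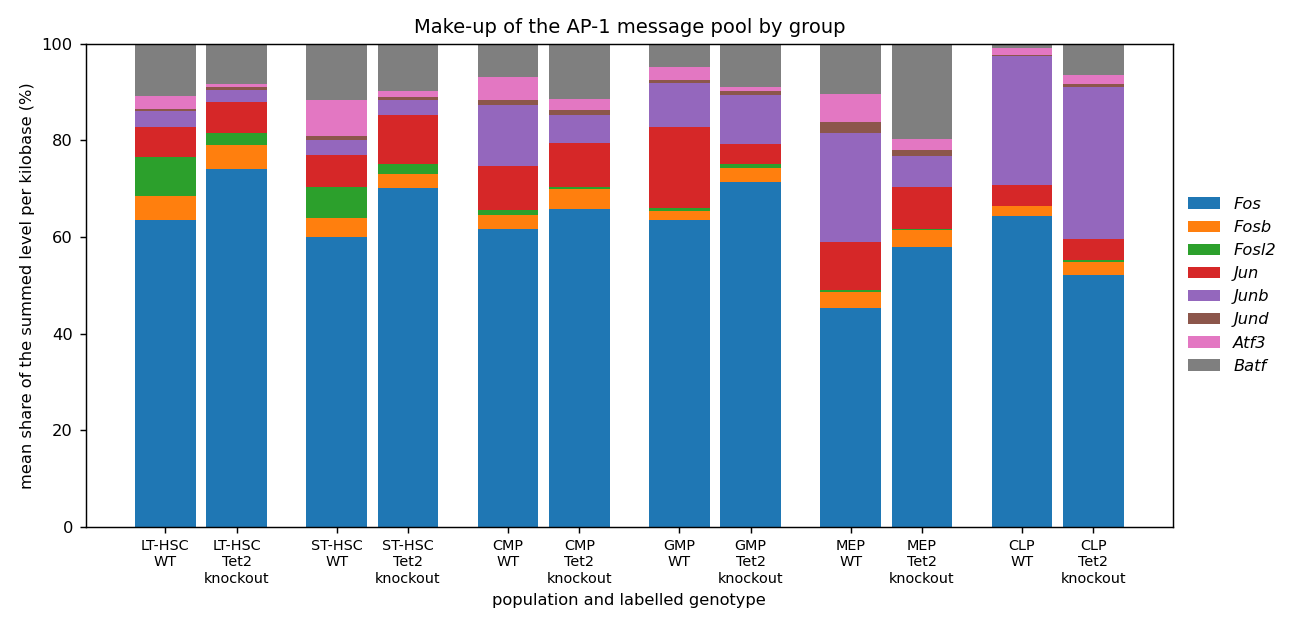
Mean share of each AP-1 gene in the summed level per kilobase of the 8 genes, in percent, for each population and labelled genotype of the first table. *Fos* fills 45.4% to 64.4% of the WT bars, and the *Jun* share of GMP and the *Junb* share of MEP are smaller in the libraries labelled Tet2 knockout.

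Fosl1, Batf2, Batf3 and Jdp2 complete the family and were low in the first table. There the group mean of *Fosl1* (FRA1) was at most 1.82 CPM, that of *Batf2* at most 5.0 CPM and that of *Jdp2*, a repressor of AP-1, at most 0.331 CPM. *Batf3*, which dendritic cells need, was at 9.50 ± 8.69 CPM in WT CLP and 11.7 ± 7.68 CPM in those labelled Tet2 knockout, and at a mean of at most 0.0891 CPM elsewhere. In the second table *Batf2* was at 36.6 ± 29.3 CPM (n = 3) in libraries labelled Sting knockout and 12 ± 20.8 CPM (n = 3) in WT, and *Jdp2* at 19.5 ± 12.5 and 12.9 ± 12.4 CPM. In the libraries labelled Tet2/Sting double knockout they were at 2.95 ± 4.75 and 0.802 ± 0.725 CPM (n = 3). Of the 20 other bZIP genes listed, edgeR called 0 in each of the 6 genotype comparisons, and DESeq2 called 2 in ST-HSC, 1 in MEP and 0 in the other 4. An unadjusted p under 0.05 was held by 1 of 18 tested in LT-HSC, 3 of 18 in ST-HSC and 1 of 15 in CLP, against 5.16%, 6.13% and 3.65% of all genes. In CMP, GMP and MEP it was 2 of 15, 2 of 16 and 2 of 12, where 3068 of 16047, 2868 of 16563 and 2448 of 14934 genes had such a p. Between WT CMP and ST-HSC 3 of 17 tested were called, against 12.2% of all genes. *Creb5* fell by 5.35 ± 0.86 (adjusted p = 0.00575), *Bach1* by 1.74 ± 0.22 (adjusted p = 0.00247) and *Crem* by 1.47 ± 0.21 (adjusted p = 0.00414). In CLP against ST-HSC *Batf3* rose (adjusted p = 0.0239) and *Nfe2l2* fell by 1.46 ± 0.33 (adjusted p = 0.0238), 2 of 17 tested against 14.9% of all genes. In GMP against CMP *Atf5* rose (adjusted p = 0.00921) and *Crem* fell by 1.01 ± 0.24 (adjusted p = 0.0109), 2 of 18 against 13.5%. Between WT MEP and CMP edgeR called 0 of 14, against 14.7% of all genes, and DESeq2 called 2. There 3 of 14 had an unadjusted p under 0.05, as did 5907 of 15547 genes. Between WT ST-HSC and LT-HSC edgeR called 0 of 17, against 0.209% of all genes, and DESeq2 called 0. There 2 of 17 had such a p, as did 1395 of 15824 genes.

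Other immediate early genes, a list of 26 that share the induction by serum, stress and cytokines, had calls in CMP, GMP and MEP. In CMP 10 of 25 tested fell, against 3.92% of all genes called lower, with a list median of -1.16 against 0.03 over all genes. The largest were *Dusp1*, a phosphatase that switches off MAP kinases, by 2.82 ± 0.23 (adjusted p = 0.000122), *Ier2* by 2.64 ± 0.28 (adjusted p = 0.000444), *Csrnp1* by 2.59 ± 0.25 (adjusted p = 0.000266) and *Nr4a1*, an orphan nuclear receptor, by 2.14 ± 0.46 (adjusted p = 0.0235).

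In GMP 6 of 25 fell, against 4.06% of all genes (median -0.84), led by *Dusp1* by 4.20 ± 0.28 (adjusted p = 6.43e-06), *Dusp2*, *Klf2* and *Csrnp1*. In MEP 6 of 22 fell, against 4.21% of all genes (median -1.31), led by *Ier2* by 2.73 ± 0.20 (adjusted p = 6.06e-05), *Dusp1*, *Dusp5* and *Nfkbia*, the inhibitor of NF-kappaB. edgeR called 0 of 25 in CLP (median -1.32), where 12 had an unadjusted p under 0.05, against 3.65% of all genes, and DESeq2 called 6. It called 0 of 26 in LT-HSC (median -0.24) and in ST-HSC (median -0.48), where 5 and 6 had such a p, against 5.16% and 6.13% of all genes, and DESeq2 called 1 each. The summed level of the list was 2325 to 2667 CPM in WT MEP against 857 to 1390 CPM, and 3616 to 4672 CPM in WT LT-HSC against 2686 to 4912 CPM in the libraries labelled Tet2 knockout, which overlapped.

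Of the 27 kinases and serum response factors that act upstream of *Fos* and *Jun*, 3 of 27 tested were called lower in CMP, against 3.92% of all genes. In MEP 1 of 26 was called lower, no more than the 4.21% of all genes called lower. Another 1 of 26 was called higher there, where 22 of 14934 genes were. In CMP *Map2k3*, *Map2k2* and *Map2k1*, MAP kinase kinases, fell by 1.91 ± 0.38, 1.33 ± 0.20 and 1.24 ± 0.28 (adjusted p = 0.0156, 0.0041 and 0.0272). In GMP *Map2k2* fell by 2.81 ± 0.27 (adjusted p = 6.57e-05). In MEP *Map2k3* fell by 1.68 ± 0.38 (adjusted p = 0.0318), while *Map2k7*, which acts on JNK, rose by 2.15 ± 0.44 (adjusted p = 0.0195). In LT-HSC, ST-HSC and CLP edgeR and DESeq2 called 0, with 1 of 26, 2 of 26 and 0 of 27 at an unadjusted p under 0.05, against 5.16%, 6.13% and 3.65% of all genes.

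Along the WT hierarchy, 2 of 26 immediate early genes rose and 7 fell in CMP against ST-HSC, where 12.2% of all genes were called (median -0.64). In CLP 13 of 25 rose and 1 fell against ST-HSC, where 14.9% of all genes were called in either direction (median 1.96), led by *Egr2* (8.71 ± 1.33, adjusted p = 0.00939), *Zfp36l1*, *Ier2* and *Gadd45b*. In MEP against CMP 16 of 25 fell and 1 rose, against 14.7% of all genes (median -1.57), with *Klf2*, *Nr4a1*, *Dusp5* and *Egr3* the largest. In GMP against CMP, where *Jun* rose, 10 of 25 fell, against 13.5% of all genes, led by *Egr3*, *Ier5*, *Nr4a1* and *Dusp5*. The list and its members were chosen with earlier results of these data known.

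Across the 46 libraries of the first table, the genes most like each AP-1 gene in log2 CPM were found among 8876 genes of mean CPM at or above 10. *Zfp36*, whose protein destabilizes AU-rich messages, was the closest to *Fos* (Pearson r = 0.95) and to *Fosb* (0.94), followed for *Fos* by *Fosb* (0.90) and *Vgll4* (0.89). *Junb* was closest to *Ier2* (0.94), *H2-D1* (0.93) and *Slc3a2* (0.92), *Jund* to *Ier2* (0.89), *Junb* (0.89) and *Ubxn4* (0.89), and *Jun* to *Fos* (0.88), *Csrnp1* (0.84) and *Zfp36* (0.84).

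*Fosl2* had other neighbours, *Klf6* (0.90), *Klf2* (0.89) and *Ebi3* (0.86). *Atf3* was most like *Nfkbid* (0.84), *Cd69* (0.82) and *Btg2* (0.80), and *Batf* like *Map3k8* (0.82), *AW112010* (0.80) and *Stat4* (0.79). Libraries of 1 population share their cell type, and no correlation was computed within populations. Without the 8 CLP libraries the correlation of *Fos* with *Junb* went from 0.77 to 0.33 (n = 38) and that with *Jun* from 0.88 to 0.76, while that with *Fosl2* went from 0.59 to 0.77 and that with *Batf* from 0.42 to 0.70.

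The second table gave LT-HSC from another set of mice and was normalized on its own. WT LT-HSC there had *Fos* at 1592, 583 and 4271 CPM and *Junb* at 1880, 637 and 1605 CPM. The WT libraries of the first table had *Junb* at 11.9 to 49.9 CPM, but levels set across the tables are not comparable beyond their separate scaling, and no test was made between them. The WT *Fos* values of the second table had an SD of 1906 CPM around a mean of 2149 CPM (n = 3).

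In the libraries labelled Tet2/Sting double knockout, *Junb* was at 7.46, 24.9 and 18.9 CPM, below every WT library, and fell by 6.40 ± 0.66 on the log2 scale. It was the 1 AP-1 gene of 8 called lower, where 0.616% of 9744 genes were. *Jun* was at 368, 171 and 182 CPM in WT and at 30.5, 35.1 and 40.6 CPM (-2.83 ± 0.49), and *Atf3* at 194, 273 and 181 CPM against 2.96, 49.8 and 48.5 CPM (-2.75 ± 0.91). *Jun*, *Junb*, *Jund* and *Atf3* lay wholly below WT, 4 of 8 where 14.2% of all genes did, and DESeq2 called 3 of them. *Fos* (-0.43 ± 0.74) and *Fosl2* (SE 0.53 around a difference near 0) overlapped WT, and the *Fos* value was -1.25 without double knockout replicate 3 and 0.57 without WT replicate 3. The *Fosl2* value was 0.73 without WT replicate 3 and -0.44 without double knockout replicate 1. The *Junb* call was lost without WT replicate 3 or without double knockout replicate 3. Beside these values, the summed level of 6 T and NK cell markers, with *Cd3e*, *Cd3d*, *Cd8a* and *Cd4* at or near 0, was 47.1 to 60.4 CPM in WT and 108 to 130 CPM in the double knockout libraries, and that of 8 neutrophil markers 0.175 to 6.33 CPM against 0 to 85.1 CPM. The summed level of 7 MEP markers was 107 to 198 CPM in WT, 29.2 to 92.6 CPM in the libraries labelled Sting knockout and 106 to 122 CPM in the double knockout libraries. Their part was not tested.

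**Figure D4:**
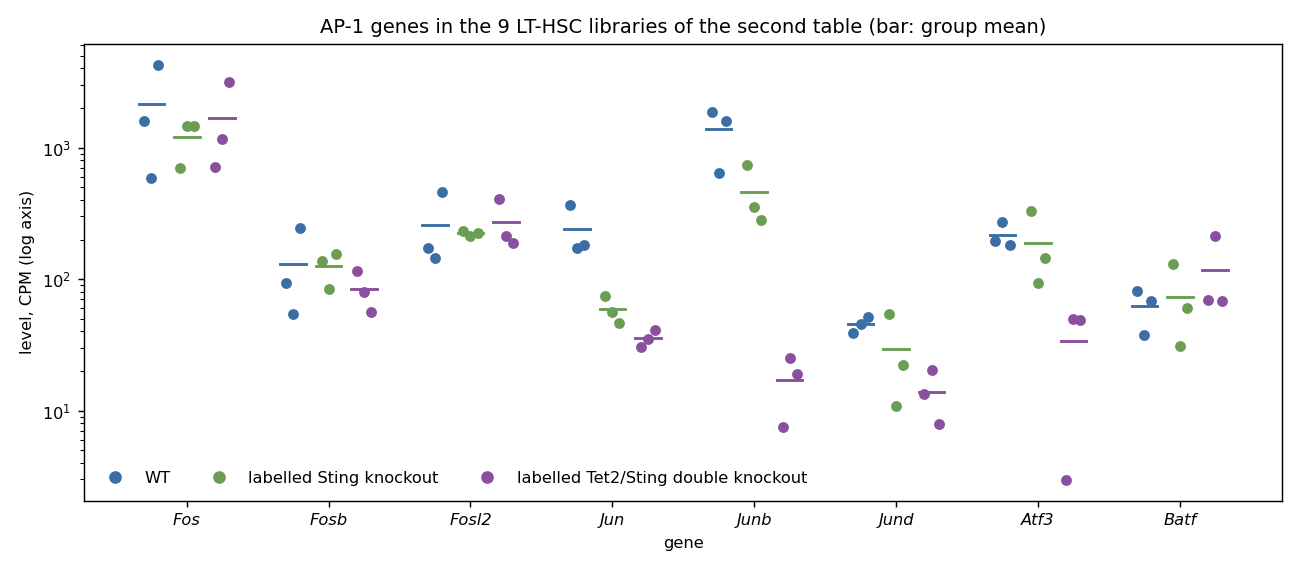
Level of each AP-1 gene in the 9 LT-HSC libraries of the second table, as CPM on a log axis, with 1 point per library and a bar at the group mean. The 3 double knockout points of *Junb* lie at 7.46 to 24.9 CPM, below the points labelled Sting knockout (279 to 735 CPM) and WT (637 to 1880 CPM).

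In the libraries labelled Sting knockout 0 of 8 AP-1 genes were called lower, and 0% of 9968 genes were. At an unadjusted p under 0.05 there were 2 of 8, against 4.71% of all genes, and DESeq2 called 1, *Jun*. *Jun* was at 74.9, 56.3 and 46.5 CPM (-2.03 ± 0.46) and lay wholly below WT, the 1 of 8 where 7.34% of all genes did. *Junb* was at 735, 354 and 279 CPM (-1.60 ± 0.50) and overlapped WT. Both comparisons share the 3 WT libraries, and both set libraries with Y-linked counts against libraries without them.

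The double knockout and Sting knockout libraries do not differ in that respect. Between them *Junb* was lower by 4.71 ± 0.62, again the 1 of 8 called lower, where 0.159% of 9436 genes were, and *Jun*, *Junb* and *Atf3* lay wholly below, 3 of 8 where 10.7% of all genes did. This *Junb* call was lost on leaving out any of the 6 libraries and with another scaling, while its direction stayed. Of the other immediate early genes, *Ier2* fell by 4.91 ± 0.36 (adjusted p = 0.00341) and *Nfkbia* by 3.37 ± 0.40 (adjusted p = 0.0132) in the double knockout against WT, 2 of 25 tested against 0.616% of all genes, and *Nfkbia* alone fell against Sting knockout, by 4.22 ± 0.42 (adjusted p = 0.0196).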

How the data were processed

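Bulk RNA-seq of sorted bone marrow populations was read from 2 tables of raw counts. The authors deposited whole-number read counts per gene, not normalized. Per the labels, the libraries were full-length SMART-type mRNA libraries, and the submitters' processing notes name Trim Galore 0.6.7, HISAT2, DESeq2 and the builds mm10 and mm9. The counting program and its use of strand are not given in the sources used here, although the columns of the second table follow the layout of featureCounts. Every one of the 55 count columns was matched to a sample by name, and 3 broken lines of 1 gene in the second table were not used.

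The quasi-likelihood test of edgeR 4.0.16 (R 4.3.3) was fitted to the 2 groups compared, after filterByExpr and with TMM scaling. Genes were called where the p adjusted by Benjamini-Hochberg over all genes was below 0.05 and the change at least 2-fold. Log2 values used a prior count of 2. The fold changes of 3 WT against 4 other libraries, or of 4 against 4 and 3 against 3, carry their standard errors. Levels per kilobase used the exon lengths of the second table. Gene positions are those of GENCODE vM21, and promoters those of RefSeq. Alternatives were DESeq2 1.42.0, RLE scaling, no low-count filter, a fit of all libraries of a table, a replicate block, leaving out each library, and, added after seeing the data, leaving out 2 CLP libraries. The procedure was checked on simulated data. Python 3.11.15 with numpy 2.4.6 and matplotlib 3.10.9 made the figures.

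The 8 AP-1 genes and the lists of related genes were chosen with earlier results of these data known. Named genes were all 8 members, at most 4 called genes of largest fold change per list and comparison, Fosl1, Batf2, Batf3 and Jdp2, and the 3 genes most like each member by Pearson correlation. Marker genes, *Tet2*, *Tmem173*, *Eif2s3y* and genes overlapping a member were named as checks. P-values set a difference between groups against the spread between these libraries. A result for 1 gene of the lists is not reported here.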

Additional observations from a re-analysis of the deposited data

Results flagged for a closer look

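*Atf3* in the WT MEP library of replicate 3 stood apart from its group, at 31.7 CPM against 17.4, 19.1 and 19.1 CPM in the other 3. It was the 1 sample that stood out among 80 pairs of gene and group looked at, and chance alone gives about 1 in 20.

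The difference between libraries labelled Tet2 knockout and WT varied with the population for 3 genes in edgeR's test of the interaction over 46 libraries, and for 4 in DESeq2's. For *Fos* the log2 fold changes spanned 2.49, from 0.47 in LT-HSC to -2.02 in CLP. For *Jun* they spanned 3.53, from 0.81 in ST-HSC to -2.72 in GMP, and for *Junb* 2.73, from 0.05 in ST-HSC to -2.68 in MEP. CLP libraries differed in *Ighm*, *Flt3* and *Dntt* as given above, and the *Fos* span rests on CLP at its lower end.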

How the results depend on the processing

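Of 1144 log2 fold changes recomputed for the 8 genes, 1138 stayed within 1 SD of the replicates, 6 moved further, each on leaving out 1 library, and 0 of the called ones changed sign. These came from DESeq2, RLE scaling, the replicate block and leaving out libraries. The fits without the low-count filter and of all libraries of a table are not among them. Of the 1138, 794 came from leaving out 1 library. With 3 or 4 libraries a group, that can hardly move a log2 fold change by 1 SD of the replicates. Those 794 therefore say little about how stable the values are. Counts of genes called moved more, and the cause was not tested. Shares of all genes called are those of the main edgeR fit throughout, and none is given for the alternatives. DESeq2 called 2 genes in LT-HSC (*Fosl2*, *Atf3*), 1 in ST-HSC (*Atf3*), 1 in CLP (*Fos*), 1 between WT ST-HSC and LT-HSC (*Atf3*), 1 for Sting knockout (*Jun*) and 3 for the double knockout against WT. A fit of all libraries of a table called 3 in CLP and 2 for the double knockout against WT, and leaving out the low-count filter also gave 2 there. The fit of all libraries called 4 between WT MEP and CMP. RLE scaling gave 0 for the double knockout against Sting knockout. With the replicate number as a replicate block, 1 gene was called between WT CMP and ST-HSC (*Junb*) and 0 between double and Sting knockout, and *Jund* was no longer called in CMP, in MEP (where *Atf3* was) and between WT CLP and ST-HSC. In no comparison did every same-numbered pair of libraries correlate above 0.1, so the numbers were not taken as pairs. The mean r of same-numbered pairs reached 0.131 between WT CMP and ST-HSC and 0.124 between WT GMP and CMP. Pairs of unlike numbers were not set beside them, so this rule cannot show that pairing is absent. Leaving out each library in turn gave 3 to 5 genes in CMP, 2 to 4 in MEP, 2 in GMP, 0 in LT-HSC, ST-HSC and CLP, 1 to 2 between WT CMP and ST-HSC, 0 to 1 between WT GMP and CMP, 5 to 6 between WT MEP and CMP, 0 to 1 for the double knockout against WT and 0 for the double knockout against Sting knockout. Of the other immediate early genes, DESeq2 called 12 in MEP against 6 by edgeR, 6 against 2 for the double knockout against WT and 5 against 1 for double against Sting knockout, and of the upstream kinases 4 against 2 in MEP.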
